A study of Saccharomyces cerevisiae with 30 samples.

Results

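The ATG genes of budding yeast, Saccharomyces cerevisiae, encode the machinery of autophagy, and 32 of them were followed through a time course in which the centromere of chromosome IV was cut out of living cells. They were taken as the rows of the deposited gene table whose name was ATG followed by a number, 32 of 7127 rows in all. In autophagy a double membrane grows around a piece of the cell, closes into an autophagosome and fuses with the vacuole, where the enclosed material is broken down and its building blocks are reused. In yeast the pathway also runs in growing cells as the cytoplasm-to-vacuole targeting (Cvt) route, which brings vacuolar enzymes such as aminopeptidase I to the vacuole. Many ATG transcripts are known to rise when cells lack nitrogen or leave exponential growth, under repressors such as Ume6 and Rph1 and activators of the GATA family.

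A pair of strains was compared, both haploid MATa cells of the S288c background. Both had the alleles his3-delta-1 and leu2-delta-0, and also ura3-delta-0 and met15-delta-0. Both expressed Cre-EBD78 from the GDP promoter beside a LEU2 marker (per the genotype labels GDP-cre EBD78:LEU2, in CEN4 at the ura3 locus). This enzyme recombines lox sites once beta-estradiol binds its hormone receptor domain. The tested strain had its chromosome IV centromere between 2 lox sites beside a KanMX marker. It is called CEN4* before beta-estradiol and cen4- afterwards, when the recombinase can cut the centromere out. The control strain, CEN4, had the recombinase but no lox sites at the centromere. All cells grew in YPD, a rich glucose medium, at 30 °C, and both strains received 1 µM beta-estradiol. Whole-cell RNA was sequenced at 30, 60, 120 and 180 min in cen4- and CEN4 cells and at 0 min in CEN4* and CEN4 cells, with 3 libraries in each of the 10 groups, from 3 independent experiments. How many cells were without the centromere at each time is not known here, and in whole-population RNA a change in fewer cells and a smaller change in every cell cannot be told apart.

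Libraries held 8218002 to 14956813 reads, of which the ATG genes took 0.0959% to 0.208%. Levels are normalised counts, that is reads divided by the size factor of the library, and levels of different genes are compared only per kilobase of gene. Differences are on the log2(value + 1) scale and were tested with limma over the 5948 genes whose mean over all libraries reached 10 normalised counts. A gene was called at a Benjamini-Hochberg adjusted p below 0.05, and ± after a log2 difference is its standard error. Of the 32 ATG genes, 31 passed this filter. The exception was ATG16, whose product binds the Atg12-Atg5 conjugate. It had no read in 27 of 30 libraries and at most 1.94 normalised counts in the others, so that it was at the limit of detection throughout. The markers of the strains stood as labelled: URA3 and MET17, deleted in both, were at 0 in all 30 libraries.

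Before beta-estradiol the ATG transcripts differed widely in level. ATG27, whose product is a membrane protein that accompanies Atg9 vesicles, was highest per kilobase, with 3410.4 ± 116 normalised counts per kb in CEN4* cells and 3623 ± 106 in CEN4 cells (SD, n = 3 each). ATG5 followed, with 882 ± 43.5 per kb in CEN4* cells and 1048 ± 165 in CEN4 cells, within an SD of ATG8 in CEN4* cells at 873 ± 45.4 per kb. ATG2, which encodes the lipid transfer protein that feeds the growing membrane, was lowest of the tested genes at 41.8 ± 1.83 per kb in CEN4* cells and 42.1 ± 3.86 in CEN4 cells. The kinase gene ATG1 also lay low, at 84.4 ± 11.1 per kb in CEN4* cells and 80.5 ± 12.1 in CEN4 cells. The order changed during the time course, because ATG8 rose while ATG27 fell. At 180 min ATG8 led in cen4- cells with 3167 ± 209 normalised counts per kb, above ATG27 with 2388 ± 35.5, and these did not overlap within their SDs. In CEN4 cells at 180 min ATG8 stood at 1256 ± 77.6 per kb, below ATG27 at 2874 ± 55.2 and within an SD of ATG33 at 1282 ± 54.3.

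At 0 min, before any beta-estradiol, a few ATG transcripts already differed between the strains. By limma 5 of 31 were higher and 1 was lower in CEN4* than in CEN4 cells, that is 19.4% called, against 15.9% of all genes tested. The median difference of the 31 was 0.07, beside 0.00 over all genes. The largest difference was that of ATG8, which encodes the ubiquitin-like protein that is coupled to the lipid of the autophagosome membrane. ATG8 had 292, 312 and 323 normalised counts in the CEN4* libraries, against 166, 216 and 192 in the CEN4 libraries. All 3 CEN4* values lay above all 3 CEN4 values (log2 difference 0.70 ± 0.08, limma adjusted p = 4.73e-10). ATG34, a receptor for vacuolar alpha-mannosidase, had 103, 115 and 113 normalised counts in CEN4* cells, against 67.7, 73.0 and 70.2 in CEN4 cells. The groups were again apart (log2 difference 0.64 ± 0.10, limma adjusted p = 6.52e-07). ATG7, the activating enzyme that starts both conjugation reactions, had 127, 116 and 119 normalised counts in CEN4* cells, against 96.0, 89.0 and 80.0 in CEN4 cells. It too was higher without overlap (0.45 ± 0.10, limma adjusted p = 0.000717).

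The mitophagy factor ATG33 was higher in CEN4* cells by 0.25 (limma adjusted p = 0.0199), although its CEN4* values of 251, 284 and 323 overlapped the CEN4 values of 227, 256 and 237. ATG15, the vacuolar lipase gene, was the fifth higher transcript (0.19, limma adjusted p = 0.0357) and is named after its values were seen. ATG5, whose product is joined to Atg12, was lower in CEN4* cells, with 744, 779 and 820.5 normalised counts, against 825, 1094 and 863 in CEN4 cells (-0.24 ± 0.08, limma adjusted p = 0.0427). Its CEN4* values were all below the CEN4 values. The calls of ATG33, ATG15 and ATG5 were weak. By edgeR all 3 were lost (adjusted p = 0.0705, 0.0714 and 0.0748), and DESeq2 lost those of ATG33 and ATG15. In the 6 fits that left out a library, ATG33 and ATG15 were each not called in 4 and ATG5 in 3. The calls of ATG8, ATG34 and ATG7 held in all of these. With the same total in every library in place of the deposited scaling, 11 were called higher and the call of ATG5 was lost. A list of 20 general stress genes moved with the strain at 0 min: 17 of 20 were called higher in CEN4* cells, where 15.9% of all genes were called. Their summed level was 39503 to 42638 normalised counts in CEN4* libraries and 20936 to 25227 in CEN4 libraries. Their part in the ATG differences was not tested.

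Most ATG transcripts rose after 0 min in both strains. At 30, 60, 120 and 180 min, 24, 24, 25 and 25 of the 31 were called higher in cen4- cells than in CEN4* cells at 0 min, while the share of all genes called in either direction was 62.2%, 56.5%, 72% and 75.2%. Higher calls alone made up 32.1%, 28.3%, 36.4% and 37.5% of all genes. In CEN4 cells 22, 23, 26 and 26 of the 31 were called higher than at 0 min of that strain, where 63.7%, 57.1%, 70.6% and 71.2% of all genes were called and 33.6%, 28.7%, 35.2% and 36% were called higher. The median ATG change at 180 min was 0.81 in cen4- cells and 0.56 in CEN4 cells, while the median over all genes was 0.00 in both. The times of a strain share its 0 min libraries. In all, 25 genes were called higher at 180 min in both strains. With the same total in every library the median of all genes moved up by 0.12 to 0.31 in these comparisons, and 27 to 29 ATG genes were called higher in cen4- cells and 26 to 28 in CEN4 cells.

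**Figure D1:**
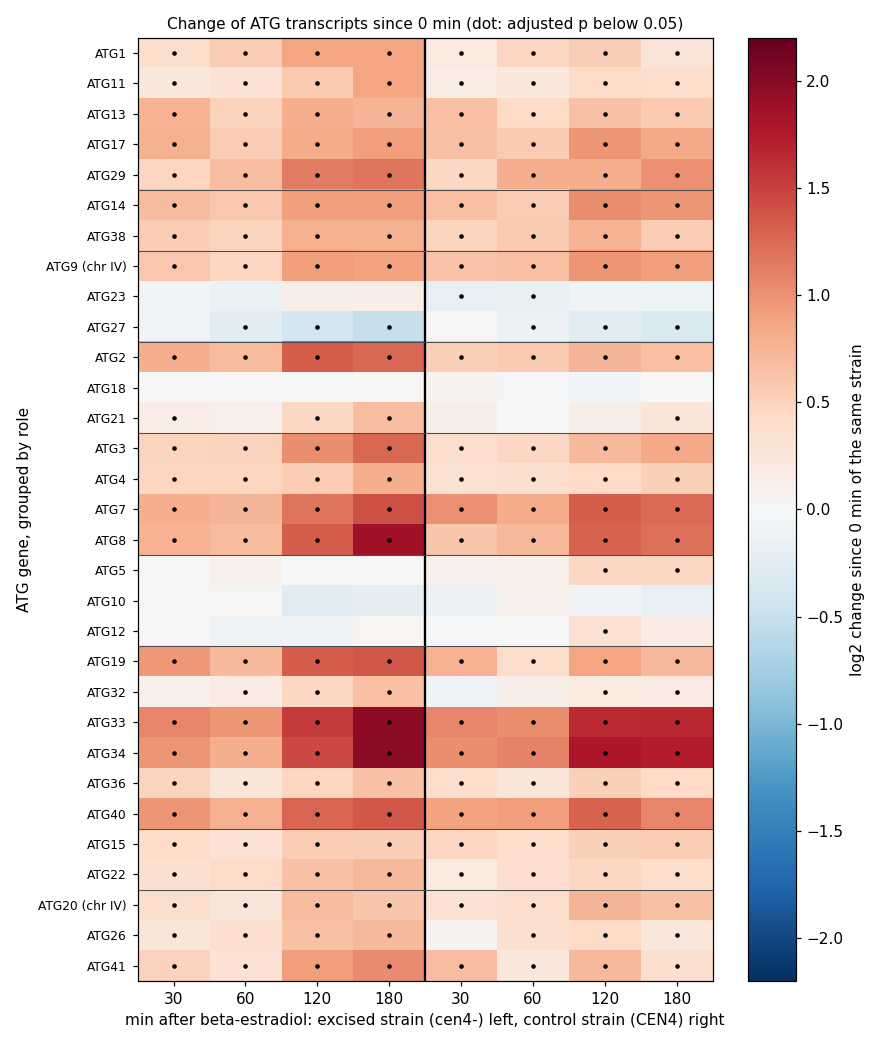
Log2 change of the 31 tested ATG transcripts since 0 min of the same strain (color scale), for cen4- cells in the 4 left columns and CEN4 cells in the 4 right columns at 30, 60, 120 and 180 min; dots mark an adjusted p below 0.05 by limma, and lines separate roles. Most rows are red in both strains, with ATG33, ATG34, ATG8 and ATG7 darkest at 180 min, and ATG27 is blue in both.

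The steepest rises belonged to genes of organelle and cargo receptors and of Atg8 conjugation. ATG33 had 1071, 1209 and 1064 normalised counts in cen4- cells and 794, 729 and 762 in CEN4 cells at 180 min. Set against 0 min of the same strain, this was a rise of 1.96 ± 0.08 in cen4- cells (limma adjusted p = 2.43e-26) and of 1.66 ± 0.08 in CEN4 cells (limma adjusted p = 1.88e-23). ATG34 rose by 1.96 ± 0.10 in cen4- cells and by 1.72 ± 0.10 in CEN4 cells, with limma adjusted p of 5.32e-27 and 4.8e-24. ATG7 rose by 1.41 in cen4- and 1.24 in CEN4 cells, and ATG40, the receptor gene for autophagy of the endoplasmic reticulum, by 1.37 in cen4- and 1.07 in CEN4 cells (all past the limma threshold). These changes were several times their standard errors in both strains.

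ATG27 went the other way in both strains and was the only gene called lower at 180 min in either. It had 1969.6, 1962 and 1916 normalised counts in cen4- cells at 180 min, against 2882, 2692 and 2775 in CEN4* cells at 0 min. In CEN4 cells it had 2374, 2293 and 2368 at 180 min, against 2856, 3004 and 3008 at 0 min. No value at 180 min reached the lowest value at 0 min of its strain. The fall was -0.51 ± 0.04 in cen4- cells (limma adjusted p = 4.89e-18) and -0.33 ± 0.04 in CEN4 cells (limma adjusted p = 5.15e-11). ATG18, which binds phosphoinositides together with Atg2, gave 0.02 in cen4- and 0.00 in CEN4 cells and was not called in either.

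Sequences before the coding start are shown for ATG8 and ATG19, which rose more in the excised strain, for ATG32, the mitophagy receptor gene, and for ATG9. ATG9 is on chromosome IV and, like the other member there, ATG20, rose by a similar amount in both strains. The windows are the 300 bases before each coding start in the R64 genome, credited to RefSeq, read 5′ to 3′ on the strand of the gene. Capitals mark matches on either strand to any of 5 motifs. The stress response element was searched as AGGGG. The core of the site of the repressor Ume6 was searched as GGCGGC. For the activator Gcn4 the letters were TGACTC. The E-box was taken as CACGTG. The site of GATA factors was taken as GATAAG. The ATG8 window is chrII:80732-81031 on the minus strand, that of ATG19 chrXV:168427-168726 on the plus strand, that of ATG32 chrIX:75774-76073 on the minus strand and that of ATG9 chrIV:184625-184924 on the plus strand.
ATG8: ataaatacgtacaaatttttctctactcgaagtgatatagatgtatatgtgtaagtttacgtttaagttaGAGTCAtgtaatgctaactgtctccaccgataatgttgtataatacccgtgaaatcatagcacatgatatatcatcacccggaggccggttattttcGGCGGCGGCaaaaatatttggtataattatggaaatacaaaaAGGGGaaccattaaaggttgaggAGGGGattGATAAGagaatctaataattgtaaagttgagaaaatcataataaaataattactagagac
ATG19: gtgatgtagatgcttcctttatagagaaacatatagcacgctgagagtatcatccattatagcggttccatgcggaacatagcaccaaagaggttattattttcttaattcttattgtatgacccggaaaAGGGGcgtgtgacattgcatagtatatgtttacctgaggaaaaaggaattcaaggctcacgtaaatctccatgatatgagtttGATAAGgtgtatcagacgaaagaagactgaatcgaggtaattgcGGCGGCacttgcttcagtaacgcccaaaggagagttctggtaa
ATG32: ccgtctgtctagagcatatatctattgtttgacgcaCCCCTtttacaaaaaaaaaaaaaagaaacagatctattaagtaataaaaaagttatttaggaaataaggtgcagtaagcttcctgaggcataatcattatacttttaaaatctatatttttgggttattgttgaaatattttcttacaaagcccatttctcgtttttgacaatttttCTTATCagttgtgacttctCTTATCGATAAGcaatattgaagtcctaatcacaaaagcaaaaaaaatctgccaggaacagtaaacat
ATG9: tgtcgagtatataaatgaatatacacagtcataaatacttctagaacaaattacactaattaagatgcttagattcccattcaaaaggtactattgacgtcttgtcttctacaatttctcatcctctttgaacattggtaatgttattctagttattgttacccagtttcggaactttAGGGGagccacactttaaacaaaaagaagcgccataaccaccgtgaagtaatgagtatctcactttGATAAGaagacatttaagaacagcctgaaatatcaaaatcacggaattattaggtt

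The ATG8 window held 2 overlapping GGCGGC matches, starting 133 and 130 bases before the coding start, with 2 AGGGG matches, a TGACTC match and a GATAAG match. In ATG19, GGCGGC lay 43 bases before the coding start. The ATG32 window held 3 GATAAG matches within 87 bases of the coding start and no GGCGGC, and ATG9 held AGGGG and GATAAG. Over all 32 members, GATAAG was in 11 windows (34.4%). It was in 14.7% of the 5988 windows of nuclear protein-coding genes in the deposited table, here called all windows. AGGGG was in 9 (28.1%, beside 22.2% of all windows), TGACTC in 4 (12.5%, beside 7.77%), CACGTG in 2 (6.25%, beside 3.56%) and GGCGGC in 2 (6.25%, beside 5.21%), which were those of ATG8 and ATG19. No matches of different motifs shared bases. A match describes letters and not a bound site.

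The question of the design is how far cells that lose the centromere differ from cells that only receive beta-estradiol. It was addressed by the excision effect, which is the change since 0 min in cen4- cells minus the change since 0 min in CEN4 cells. At 180 min the ATG transcripts were called in both directions but mostly higher. Of the 31 genes, 14 were higher and 2 were lower by limma, 51.6% called, against 42.3% of all genes tested. Higher calls alone made up 19.8% of all genes. By edgeR 11 were higher and 2 lower, and by DESeq2 12 were higher and 2 lower. The median excision effect of the 31 was 0.24, beside -0.01 over all genes. With the same total in every library the median of all genes moved up by 0.10, and 18 ATG genes were called higher and 1 lower, where all genes gave 1856 higher and 788 lower calls in place of 1180 and 1336.

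**Figure D2:**
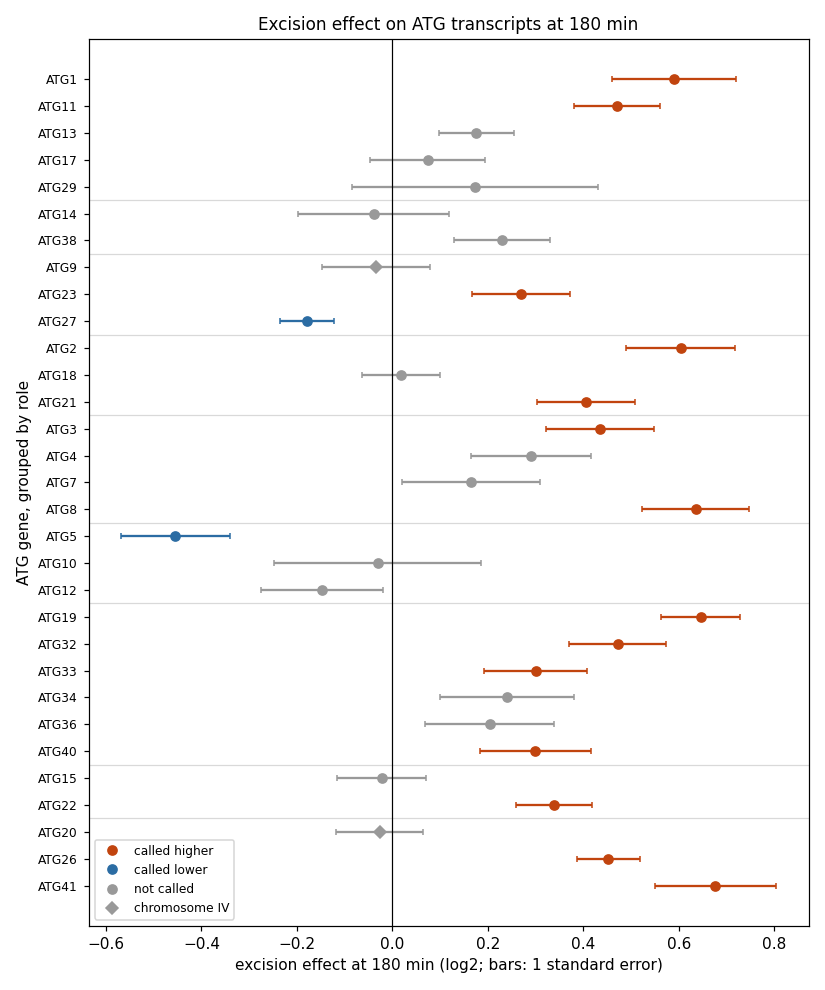
Excision effect at 180 min for the 31 tested ATG genes on the log2 scale (x axis), grouped by role from top to bottom; points are estimates, bars 1 standard error, colors the limma call, and diamonds the 2 genes on chromosome IV. ATG41, ATG19, ATG8, ATG2 and ATG1 lie farthest to the right, between 0.59 and 0.68, ATG5 lies farthest to the left at -0.45, and both diamonds lie at -0.03.

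Among the genes of the Atg1 kinase complex and its scaffolds, which start the process, 2 of 5 were called higher. Over all genes 42.3% were called and 19.8% were called higher. The roles hold few genes each, and their counts are descriptions that were not tested. ATG1 had 409, 418 and 416 normalised counts in cen4- cells at 180 min, against 244, 284 and 259.5 in CEN4 cells. At 0 min it had 201, 221 and 259.97 in CEN4* cells, against 196, 199.7 and 255 in CEN4 cells. The strains overlapped at 0 min and were apart at 180 min (excision effect 0.59 ± 0.13, limma adjusted p = 0.000171). ATG11, the scaffold for selective cargo, had 696, 676 and 637 normalised counts in cen4- cells, against 474, 412 and 441 in CEN4 cells at 180 min. The 0 min values were 362, 361 and 383 in CEN4* cells, against 325, 351 and 335 in CEN4 cells. All values of the excised strain were above those of the control at both times, by more at 180 min (0.47 ± 0.09, limma adjusted p = 1.86e-05). ATG13, ATG17 and ATG29, which encode the regulatory subunit of the kinase and 2 scaffold proteins for starvation, had effects of 0.18, 0.07 and 0.17 and were not called. ATG29 shares 24 bases with SET6 on the opposite strand, so that their reads may be mixed.

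Of the genes for lipid transfer and phosphoinositide binding, 2 of 3 were called higher, where 19.8% of all genes were. ATG2 had 473, 459 and 513 normalised counts in cen4- cells at 180 min, against 332, 314 and 306 in CEN4 cells. At 0 min there were 201, 191 and 208 in CEN4* cells, against 204, 181 and 218 in CEN4 cells. The strains interleaved at 0 min, and at 180 min the lowest cen4- value was well above the highest CEN4 value (0.60 ± 0.11, limma adjusted p = 1.48e-05, a 1.52-fold larger change). ATG21, a phosphoinositide-binding protein that helps place Atg8, had 725, 678 and 653 normalised counts in cen4- cells, against 506, 563 and 541 in CEN4 cells at 180 min. Here too the groups were apart, from overlapping values at 0 min (0.41 ± 0.10, limma adjusted p = 0.00101). ATG14 and ATG38, subunits of the lipid kinase complex that makes the phosphoinositide, were not called, with -0.04 and 0.23.

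In Atg8 conjugation 2 of 4 genes were called higher, where 19.8% of all genes were, and all 4 estimates were above 0, with a median of 0.36. ATG8 had 1036, 1172 and 1155 normalised counts in cen4- cells at 180 min, against 417, 472 and 444 in CEN4 cells. Every cen4- value was more than the highest CEN4 value by a wide margin, and the difference between the strains was larger than at 0 min (0.64 ± 0.11, limma adjusted p = 5.14e-06). ATG3, the enzyme that passes Atg8 to its lipid, had 598, 696 and 647 normalised counts in cen4- cells, against 389.6, 422 and 433 in CEN4 cells. At 0 min it had 254, 269.9 and 280.3 in CEN4* cells, against 226, 239.6 and 232 in CEN4 cells. The strains were apart at both times and farther apart at 180 min (0.43 ± 0.11, limma adjusted p = 0.0012). The protease gene ATG4 (0.29, limma adjusted p = 0.0574) and ATG7 (0.16, limma adjusted p = 0.382) were not called. ATG4, ATG13 and ATG38 were called with the same total in every library.

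In Atg12 conjugation all 3 tested estimates were below 0 under the deposited scaling, with a median of -0.15. Of these 1 was called, where 42.3% of all genes were called in either direction. The estimate of ATG10 was smaller than the shift of 0.10 that the same total in every library brings. ATG5 had 802, 773 and 775 normalised counts in cen4- cells at 180 min, against 1252, 1342 and 1207 in CEN4 cells. The groups were far apart, and the cen4- values lay within the range of the CEN4* values of 744, 779 and 820.5 at 0 min. The excision effect was -0.45 ± 0.11 (limma adjusted p = 0.00189), made up of a change of 0.01 in cen4- cells (limma adjusted p = 0.957) and a rise of 0.46 in CEN4 cells (limma adjusted p = 1.14e-05). ATG5 transcripts rose in the control and were not called changed in the excised strain. ATG12, the ubiquitin-like partner, had -0.15 and ATG10, its conjugating enzyme, -0.03, neither called.

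**Figure D3:**
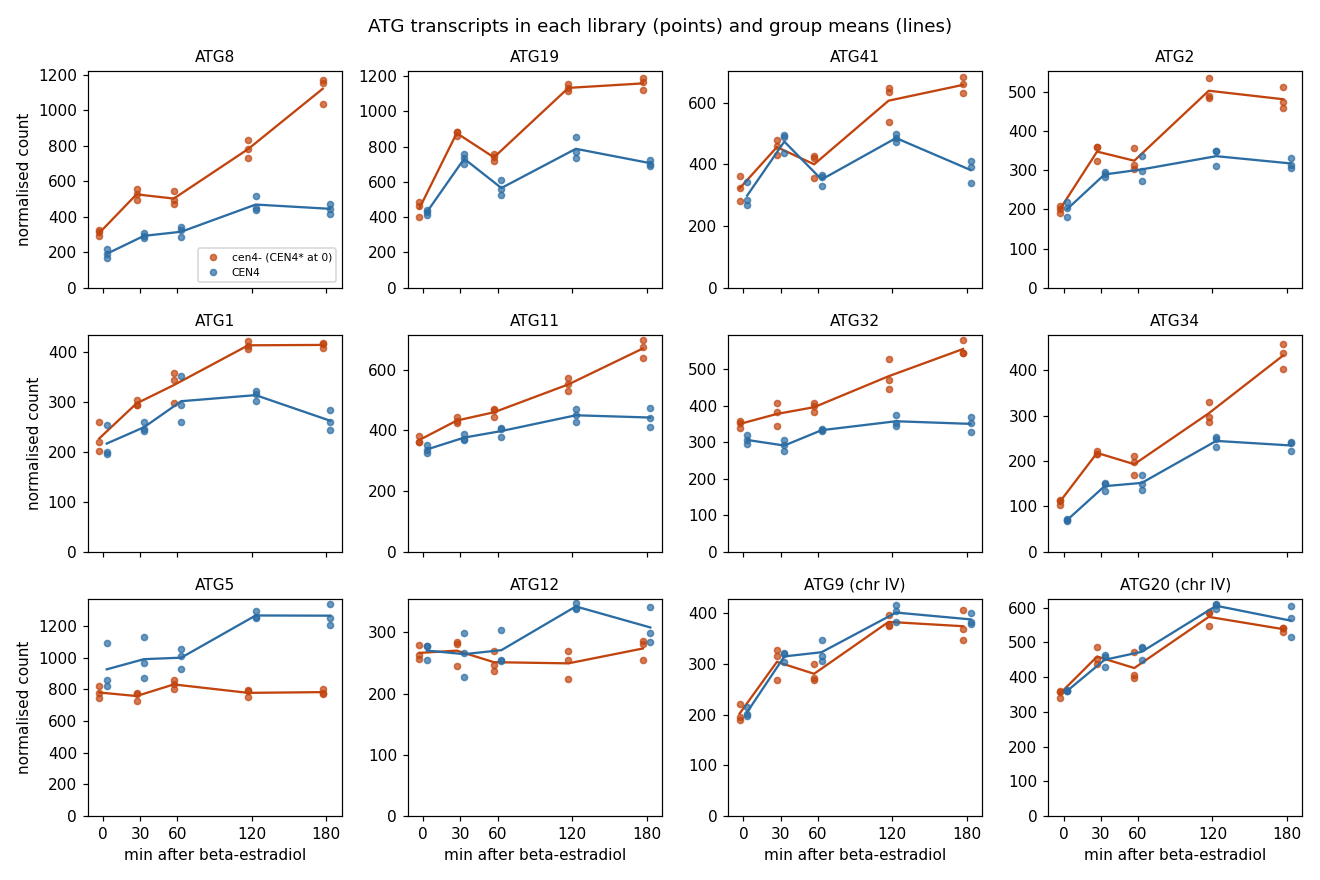
Normalised counts of 12 ATG genes in each library (points) with group means (lines) against min after beta-estradiol, for cen4- cells (CEN4* at 0 min, orange) and CEN4 cells (blue). At 180 min the strains are apart for all but ATG12, ATG9 and ATG20, and ATG5 is the only one of the 12 whose 3 cen4- values lie below all CEN4 values.

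Receptors and organelle factors had 4 of 6 genes called higher, where 19.8% of all genes were, and all 6 estimates were above 0. ATG19, the receptor that brings aminopeptidase I into the Cvt route, had 1119, 1189.7 and 1163 normalised counts in cen4- cells at 180 min, against 725, 689 and 703 in CEN4 cells. At 0 min the values were 487, 462 and 403 in CEN4* cells, against 443, 429 and 415 in CEN4 cells. They overlapped at 0 min and were widely apart at 180 min (0.65 ± 0.08, limma adjusted p = 1.62e-09, the smallest of the 31). ATG32, the receptor for mitochondria, had 579, 543 and 543 normalised counts in cen4- cells, against 369.6, 352 and 328 in CEN4 cells. At 0 min it had 357, 338 and 354 in CEN4* cells, against 319.8, 305 and 294 in CEN4 cells, so that the strains were apart at both times and by more at 180 min (0.47 ± 0.10, limma adjusted p = 0.000104).

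ATG33 (0.30 ± 0.11, limma adjusted p = 0.0227) and ATG40 (0.30 ± 0.12, limma adjusted p = 0.0336) were called as well. Both calls were weak: ATG33 was not called by edgeR or in 4 of the 12 fits that left out a library (adjusted p up to 0.108), and ATG40 was not called by edgeR, by DESeq2 or in 6 of those 12 fits (up to 0.114). ATG34 was not called, at 0.24 (limma adjusted p = 0.165), with 402, 459 and 438 normalised counts in cen4- cells, against 239, 222 and 243 in CEN4 cells. It was called with the same total in every library (0.35, limma adjusted p = 0.0394). Its strains were apart at 180 min, as they were at 0 min. ATG34 and ATG19 are neighbours on chromosome XV, 1774 bases apart on the same strand. ATG36, the peroxisome receptor gene, had 0.20 and was not called.

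Of the 3 genes around Atg9 vesicles, ATG23, which helps Atg9 to travel, was called higher by limma (0.27 ± 0.10, limma adjusted p = 0.0301) but not by edgeR or DESeq2 (adjusted p = 0.0524 and 0.0526) or in 6 of the 12 fits that left out a library, and ATG27 was called lower (-0.18 ± 0.06, limma adjusted p = 0.00799). ATG27 had 1949 normalised counts in cen4- cells and 2345 in CEN4 cells at 180 min on average, and its call was lost with the same total in every library. ATG22, an exporter of amino acids from the vacuole, was called higher (0.34, limma adjusted p = 0.000394), whereas ATG15 was not (-0.02). The largest effect of all 31 was that of ATG41, a gene of selective and starvation autophagy. It had 630.4, 660.3 and 683 normalised counts in cen4- cells, against 393, 341 and 412 in CEN4 cells at 180 min. Its 0 min values were 324, 281 and 363 in CEN4* cells, against 267, 343 and 285 in CEN4 cells. They overlapped at 0 min and were apart at 180 min (0.68 ± 0.13, limma adjusted p = 3.37e-05). ATG26, a sterol glucosyltransferase that the table describes as not needed for autophagy in this yeast, was also higher (0.45 ± 0.07, limma adjusted p = 6.39e-08), with 1218, 1276 and 1231 normalised counts in cen4- cells, against 887, 857 and 892 in CEN4 cells. Without it 13 of 30 were called higher.

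Few ATG genes were called in the excision effect before 120 min, as was the case over all genes. At 30 min no ATG gene was called by limma, edgeR or DESeq2, where 1.85% of all genes were called by limma, and 3 had an unadjusted limma p below 0.05, all higher. At 60 min ATG19 alone was called, against 2.91% of all genes, with 716, 759.6 and 740.4 normalised counts in cen4- cells and 526, 560.03 and 608 in CEN4 cells. The 2 groups were apart (0.32 ± 0.08, limma adjusted p = 0.0133), but the call was lost by edgeR and in 4 of 12 fits that left out a library. At 120 min 5 were called higher and 3 lower, 25.8% of 31, against 26.1% of all genes, a share close to that of all genes, and with the same total in every library 11 were higher and 2 lower. Without CEN4* replicate 1 at 0 min 5 were called, 3 higher and 2 lower. The median of the 31 was 0.02 at 120 min, beside -0.01 over all genes. The 4 excision effects share the 0 min libraries of both strains.

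At 120 min ATG2 led, with 536, 489.6 and 483 normalised counts in cen4- cells, against 311, 348 and 349 in CEN4 cells. The groups were clearly apart (0.59 ± 0.11, limma adjusted p = 4.87e-05). ATG19 had 1112, 1131 and 1154 in cen4- cells, against 734, 857 and 770.5 in CEN4 cells, also apart (0.46, limma adjusted p = 1.05e-05). ATG21 (0.33, limma adjusted p = 0.0114), ATG3 (0.32, limma adjusted p = 0.0302) and ATG26 (0.21, limma adjusted p = 0.0133) were the other higher calls, of which that of ATG3 was lost by edgeR, by DESeq2 and in 6 of 12 fits that left out a library. The lower calls were ATG5, ATG12 and ATG27. ATG5 had 788, 795 and 753 normalised counts in cen4- cells, against 1255, 1256 and 1294 in CEN4 cells (-0.47, limma adjusted p = 0.00272). ATG12 had 269.98, 254 and 224 in cen4- cells, against 349, 340.1 and 339 in CEN4 cells, with no cen4- value near the CEN4 ones (-0.44 ± 0.13, limma adjusted p = 0.00696). ATG27 was lower by less (-0.17, limma adjusted p = 0.0213), and its call was lost with the same total in every library (-0.08, limma adjusted p = 0.26). In the 12 fits that left out a library, the calls of ATG27 and ATG21 were each lost in 2 and that of ATG26 in 1. ATG8 was not called at 120 min, with 835, 781 and 729 normalised counts in cen4- cells, against 446, 440.4 and 519 in CEN4 cells (0.04 ± 0.11, limma adjusted p = 0.827). Its strains were already apart at 0 min.

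The step from 120 to 180 min was compared between the strains as well, after the values were seen. By limma 6 of 31 ATG genes changed more upward in cen4- than in CEN4 cells over that hour, 19.4% of them, against 12.5% of all genes called and 6.41% called higher. ATG8 led this group with 0.59 ± 0.11 (limma adjusted p = 9.42e-05), followed by ATG34 with 0.56 ± 0.14 (limma adjusted p = 0.00287).

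Compared directly at 180 min, without the 0 min libraries, 22 ATG genes were higher and 2 lower in cen4- than in CEN4 cells by limma, against 64.1% of all genes called. For 24 of the 31 the 3 cen4- values did not overlap the 3 CEN4 values, with cen4- higher for 21, while 69.3% of all genes were apart in this way. ATG8 was the most different (1.33 ± 0.08, limma adjusted p = 1.52e-21, 2.52-fold).

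ATG9 and ATG20 are the members on chromosome IV, whose centromere was cut out. ATG9 encodes the membrane protein of the vesicles that seed the autophagosome and lies at chrIV:184925-187918 on the plus strand (R64). ATG20 encodes a sorting nexin of the Cvt route and lies at chrIV:256633-258555 on the minus strand. They are 262 and 191 kb to the left of the centromere at chrIV:449711-449821. ATG9 had 346, 407 and 369.8 normalised counts in cen4- cells at 180 min, against 401, 379 and 383 in CEN4 cells. At 0 min it had 196, 222 and 189 in CEN4* cells, against 202, 197 and 215 in CEN4 cells. The strains overlapped at both times, and both had risen, by 0.89 in cen4- cells and 0.92 in CEN4 cells (limma adjusted p = 1.56e-15 and 4.53e-16). The excision effect at 180 min was -0.03 ± 0.11 (95% interval -0.26 to 0.19, limma adjusted p = 0.843).

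ATG20 had 542, 543 and 529.7 normalised counts in cen4- cells at 180 min, against 516, 569 and 604 in CEN4 cells. At 0 min it had 341, 357 and 359 in CEN4* cells, against 360.2, 359 and 362 in CEN4 cells. It likewise overlapped at 180 min and rose in both strains, by 0.61 in cen4- cells and 0.64 in CEN4 cells, and its excision effect was -0.03 ± 0.09 (95% interval -0.21 to 0.16, limma adjusted p = 0.846). Neither gene was called at 30, 60 or 120 min, where ATG9 had -0.03, -0.18 and -0.05 and ATG20 had 0.06, -0.12 and -0.04. With the same total in every library both estimates at 180 min were above 0, at 0.07 and 0.08, and not called.

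**Figure D4:**
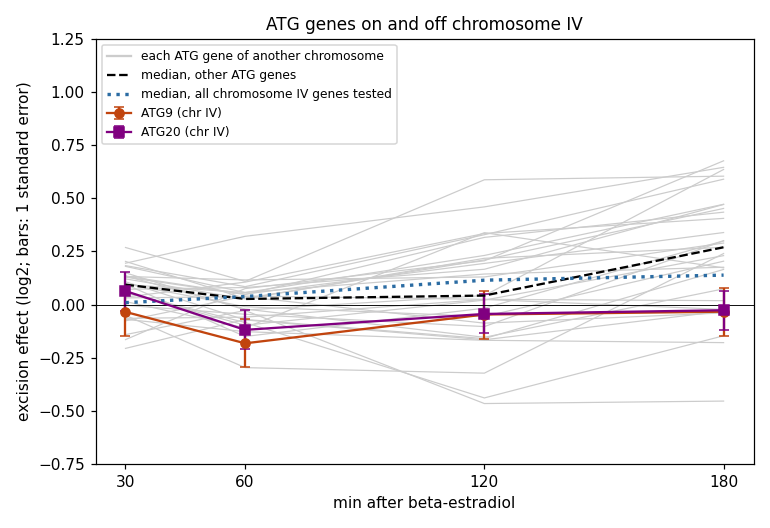
Excision effect on the log2 scale against min after beta-estradiol for ATG9 and ATG20 (bars: 1 standard error), each ATG gene of another chromosome (gray), their median (dashed) and the median of all 768 tested chromosome IV genes (dotted). Both chromosome IV members end at -0.03 at 180 min, below the dashed line at 0.27 and the dotted line at 0.14.

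The median of ATG9 and ATG20 was lower than that of the 29 other tested ATG genes by 0.08, 0.18, 0.09 and 0.30 at 30, 60, 120 and 180 min. These are descriptions of 2 genes and were not tested. For all chromosome IV genes the sign was opposite: their median excision effect was above that of the other genes by 0.03, 0.04, 0.13 and 0.17. Of the 768 tested genes on chromosome IV, 293 were called higher and 91 lower at 180 min. Of all 5948 genes tested, 1180 (19.8%) were called higher and 42.3% were called in either direction. The difference in log2 level between the chromosome IV members and the other ATG genes had a pooled SD of 0.10 between replicate libraries. This SD is a spread of levels in single libraries. It is not the spread of the excision effects above, nor that between genes.

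Other autophagy genes were named in RefSeq but carry no name in the deposited table and are no members. ATG31, a scaffold gene at chrIV:488072-488662, 38.3 kb to the right of the centromere, had an excision effect at 180 min of -0.17 (limma adjusted p = 0.354) and was not called, as ATG9 and ATG20 were not. The nuclear envelope receptor gene ATG39 was higher (0.87, limma adjusted p = 4.77e-05), as was the vacuolar carboxypeptidase gene ATG42 (0.42, limma adjusted p = 7.2e-07). ATG44, a mitochondrial fission factor gene, was lower (-0.35, limma adjusted p = 0.00472).

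Of 9 genes for core partners and Cvt cargo, 4 were called higher at 180 min and the other 5 were not called, with a median excision effect of 0.20. This is 44.4% called, close to the 42.3% of all genes, of which 19.8% were called higher. VPS34, the lipid kinase itself, gave 0.34, SNX4, the sorting nexin that pairs with Atg20, 0.35, and the cargo enzyme gene AMS1 0.37, while APE1 gave 0.00 and was not called. Of 5 vacuolar hydrolase genes 3 were higher, with PRB1 at 0.44, and 1 was lower, CPS1 at -0.41, which is 80% called. Among 26 regulators 10 were higher and 3 lower, with a median of 0.11, and the 50% called was again not far from the 42.3% of all genes. The largest higher values were those of RIM15, a kinase of entry into quiescence (0.68), RPH1, the repressor of several ATG genes (0.61), and GCN2, the kinase that senses amino acid lack (0.52). The 3 lower genes were RPD3, the histone deacetylase that works with Ume6 (-0.25), TPK3, a catalytic subunit of protein kinase A (-0.24), and the activator gene GCN4 (-0.16). The repressor gene UME6 (0.11) and the GATA factor genes GLN3 (0.11) and GAT1 (0.03) were not called.

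General stress genes differed in both directions in the excision effect, and markers of MATa cells were lower. Of 20 stress genes 10 were called higher and 5 lower in the excision effect at 180 min (median 0.25). Over all genes 42.3% were called and 19.8% were called higher. The summed level of the stress genes was 182386 to 189167 normalised counts in cen4- cells and 89636 to 93406 in CEN4 cells at that time. It was already apart at 0 min, with 39503 to 42638 in CEN4* libraries and 20936 to 25227 in CEN4 libraries. All 7 markers of MATa cells were lower, with effects of -1.52 to -0.26 and sums of 22935 to 23483 in cen4- libraries and 43845 to 45717 in CEN4 libraries at 180 min. Their sums were already lower in CEN4* libraries at 0 min, with 44701 to 46436, against 52935 to 54057 in CEN4 libraries. The 4 markers of alpha cells were not called and summed to 699.96 to 767.9 in cen4- and 585.9 to 665.7 in CEN4 libraries. The part of these genes in the ATG results was not tested.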

How the data were processed

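Per the labels, the deposited signal of a gene in a library is its read count divided by the DESeq2 size factor. STAR 2.6.1, DESeq2 and the R64 (sacCer3) genome are named per the submitters' processing notes. How reads were counted, with or without strand and against which annotation, is not given in the sources used here. Reads of overlapping genes thus cannot be told apart. In all 30 libraries 100% of values were whole multiples of 1 read within 1e-06 of a read. Multiplying back gave counts for the edgeR and DESeq2 alternatives only. These counts are recovered from the deposited values. In 2 CEN4 libraries the value of 1 read is too close to 1 for this to be checked independently.

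The log2(value + 1) scale was fitted with limma 3.58.1 (R 4.3.3; trend and robust set) as 10 group means with 20 residual degrees of freedom, for the 5948 genes whose mean reached 10 normalised counts. The pseudocount of 1 understates changes of low genes. Adjustment was by Benjamini-Hochberg over all genes of a comparison. Alternatives were pseudocounts of 5 and 0.5, no filter, a mean of at least 50, the same total in every library, TMM scaling, array weights, edgeR 4.0.16, DESeq2 1.42.0, a replicate block and leaving out each library. The main fit was tested on simulated counts with known changes at 180 min. In the excision effect it called 69 of 100 changes of 1.3-fold and 88 of 100 of 1.5-fold with the right sign. It also called 4 unchanged genes. A gene not called may thus still have a change of this size. The 30 pairs of replicate libraries differed by more than counting noise (chi-square per degree of freedom 1.48 to 7.75, genes with at least 40 reads), so all 3 libraries of a group were used, and SDs are over 3 libraries.

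The members and lists were chosen with earlier results of these data known. Genes described in full were both chromosome IV members, ATG1, ATG8, ATG19 and ATG34, up to 8 called genes with the largest excision effects at 180 and at 120 min, up to 3 at 30 and 60 min, up to 5 strain differences at 0 min, and the 5 largest called rises and falls since 0 min in each strain, which gave 19 genes. Promoter windows were read from the R64 genome of RefSeq, and 50-base stretches of the 32 genes were searched for in the rest of the genome, where none recurred.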

Additional observations from a re-analysis of the deposited data

Results flagged for a closer look

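The change since 0 min differed between cen4- and CEN4 cells, by limma's test of the difference itself, for ATG19 at 60 min (0.32) and for 8 genes at 120 min. At 120 min these were ATG2 (0.59), ATG19 (0.46), ATG21 (0.33), ATG3 (0.32) and ATG26 (0.21) on the higher side, and ATG5 (-0.47), ATG12 (-0.44) and ATG27 (-0.17) on the lower side, all on the log2 scale. At 180 min the differences were those of ATG41 (0.68), ATG19 (0.65), ATG8 (0.64), ATG2 (0.60), ATG1 (0.59), ATG32 (0.47), ATG11 (0.47), ATG26 (0.45), ATG3 (0.43), ATG21 (0.41), ATG22 (0.34), ATG33 (0.30), ATG40 (0.30) and ATG23 (0.27), and of ATG5 (-0.45) and ATG27 (-0.18) in the opposite direction.

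The step from 120 to 180 min also differed between the strains, in a comparison added after the values were seen. The 6 genes called by limma were ATG8 (0.59 ± 0.11), ATG34 (0.56 ± 0.14), ATG41 (0.47 ± 0.13), ATG33 (0.40 ± 0.11), ATG11 (0.30 ± 0.09) and ATG26 (0.24 ± 0.07), log2 ± SE. ATG8 averaged 1121 ± 74.1 normalised counts at 180 min and 782 ± 52.7 at 120 min in cen4- cells, and 445 ± 27.5 at 180 min and 469 ± 43.9 at 120 min in CEN4 cells (SD, n = 3 each). For ATG41 and ATG26 the difference included a marked fall of the mean in CEN4 cells, as given above. In the 12 fits that left out a library, 5 to 6 genes were called in this comparison.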

How the results depend on the processing

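The number of ATG genes called in the excision effect at 180 min stayed within 1.5 times of 16 under every alternative run, with 13 to 17 when each library was left out in turn. With the same total in every library the count at 120 min was 13 in place of 8, and at 0 min 11 in place of 6. By edgeR it was 0 in place of 1 at 60 min and 3 in place of 6 at 0 min. With array weights it was 2 at 60 min. Leaving out each library gave 0 to 1 at 60 min, 5 to 9 at 120 min and 4 to 5 at 0 min. No value changed sign among called results. The cause of these changes was not tested. Title numbers are shared by 1 library of each strain at each time. Deviations of same-numbered libraries correlated by -0.10 to 0.12, above 0.1 in 1 of 15 pairs, and 6 of 15 were best with their own number. Low correlations cannot show whether same-numbered libraries came from the same experiment, because differences between experiments may be small. The main fit did not pair the libraries. With the title numbers as a replicate block 16 genes were called at 180 min, 9 at 120 min and 6 at 0 min. The 3 libraries a group and a median standard error of 0.08 limit which small effects could be called. The standard error at 180 min was larger for the low genes ATG10 (0.22) and ATG29 (0.26), and ATG16 could not be tested.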

Other observations

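Nitrogen catabolite genes, which GATA factors control and which serve poor nitrogen sources, were called in either direction about as often as all genes. Of 18 tested, 7 were called higher and 1 lower in the excision effect at 180 min by limma (median 0.20, beside -0.01 over all genes), which is 44.4% called, against 42.3% of all genes. Higher calls alone made up 19.8% of all genes. The urea transporter gene DUR3 had 1.12 and the 4-aminobutyrate transporter gene UGA4 0.87. The arginine catabolism genes CAR2 and CAR1 had 0.80 and 0.55, but both had fallen since 0 min in both strains, and fell less in cen4- cells. CAR2 changed by -0.28 in cen4- cells and by -1.08 in CEN4 cells, and CAR1 by -0.49 in cen4- cells and by -1.04 in CEN4 cells, all called by limma. The mean of DUR1,2 likewise fell less in the excised strain. It was 1277 normalised counts in CEN4* cells at 0 min and 970 in cen4- cells at 180 min, and 1138 and 576 in CEN4 cells. DAL3, of allantoin breakdown, was lower (-0.61, limma adjusted p = 0.0384). The amino acid permease gene GAP1 (0.01) and the ammonium transporter gene MEP2 (0.04) were not called.

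Of 13 genes for the fusion of autophagosomes with the vacuole, 3 were called higher and 3 lower at 180 min (median -0.01). This is 46.2% called, close to the 42.3% of all genes. VPS39 (0.53) and VPS41 (0.35), subunits of the tethering complex, were higher, and so was the SNARE gene VTI1 (0.29). The SNARE genes VAM7 (-0.40) and YKT6 (-0.31) and the Rab GTPase gene YPT7 (-0.22) were lower. Normalised counts summed over the 32 ATG genes were 19244 ± 430.1 in cen4- cells and 15743 ± 40.3 in CEN4 cells at 180 min. At 0 min the sums were 12384 ± 105.7 in CEN4* and 12146 ± 339.3 in CEN4 (SD, n = 3 each).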
